A study of Homo sapiens with 26 samples.

Results

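EZH2 is the histone methyltransferase subunit of PRC2 (Polycomb repressive complex 2), which represses genes by methylating histone H3 and which has been reported to bind many RNAs. The authors' lists of EZH2-associated small RNA give 397 exons in K562 cells, a chronic myeloid leukaemia line. Of these, 215 exons (54.2%) share no base on either strand with any exon listed for T98G or U87MG, which are glioblastoma lines. These 215 K562-only exons, out of 3639 exons in the 3 lists, are described here, and the other 182 K562 exons serve as their comparison from the same libraries. Members were selected on the authors' calls in the 3 lines, so that number is a description and was not tested.

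RNA that co-precipitated with EZH2 was sequenced from each line beside RNA from an IgG2a control precipitation and input RNA with no antibody. K562 has 3 small RNA libraries, 1 each of EZH2, IgG and input, while T98G and U87MG have 6 each, with 2 libraries in every group. Other lists hold full-length RNA targets of EZH2 for T98G and introns that U87MG retains. A last list holds U87MG genes that changed under siRNA against EZH2 relative to siRNA against GFP. T98G also has long RNA libraries, 2 in each group, and there is 1 iCLIP library (RNA sequenced after crosslinking to the protein). The iCLIP title names no cell line. Which of these libraries gave the full-length list was not established here. The series holds 26 libraries in 15 groups. The lists hold regions and no value for any single library, so no value below has a replicate error, depth is unknown, and a call in K562 has no second K562 library behind it. An exon missing from the T98G or U87MG list was not called there, which does not show that its RNA was absent. Levels of RNA in the 3 lines were not given either, so expression in K562 alone and association with EZH2 in K562 alone cannot be told apart.

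Small RNA libraries of this kind are made by ligating an adapter to the 3′ end of each RNA and priming reverse transcription from that adapter. The series' title names mispriming in reverse transcription as a source of artifacts. In mispriming, the primer anneals inside an RNA where the RNA happens to match the adapter's first bases, AGATCGG in the kit named by the labels; that sequence is general knowledge and was not taken from the labels. Such a match lies on the strand of the RNA, and the opposite strand of the same exon gives a background of equal width.

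Some members are annotated small RNA genes, and 8 of these are shown whole because this class differed from the other groups of exons, as described further on. A C/D box small nucleolar RNA (snoRNA) guides 2′-O-methylation of ribosomal and other RNA and carries a C box and a D box. An H/ACA box snoRNA guides pseudouridylation. Y RNAs are short RNA polymerase III transcripts bound by the Ro protein. Coordinates are hg19, 1-based, and sequences are read 5′ to 3′ on the strand of the RNA from GRCh37, the assembly behind hg19. Capitals mark TGATGA and CTGA, letters of the C and D boxes, in the 4 C/D box snoRNAs.

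SNORD63 chr5:137896732-137896799 (- strand): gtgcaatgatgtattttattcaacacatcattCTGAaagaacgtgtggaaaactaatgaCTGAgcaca

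SNORD99 chr1:28905261-28905334 (- strand): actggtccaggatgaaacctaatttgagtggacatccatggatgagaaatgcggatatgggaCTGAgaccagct

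SNORD19.1 chr3:52725394-52725469 (+ strand): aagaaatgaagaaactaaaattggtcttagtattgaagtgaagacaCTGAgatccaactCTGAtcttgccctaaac

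SNORD114-1 chr14:101416170-101416241 (+ strand): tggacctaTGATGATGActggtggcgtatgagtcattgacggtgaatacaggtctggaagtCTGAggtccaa

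SNORA80 chr21:33749496-33749631 (- strand): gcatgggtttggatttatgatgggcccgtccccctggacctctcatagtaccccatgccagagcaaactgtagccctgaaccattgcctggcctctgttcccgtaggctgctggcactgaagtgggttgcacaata

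MIR720 chr3:164059129-164059238 (+ strand): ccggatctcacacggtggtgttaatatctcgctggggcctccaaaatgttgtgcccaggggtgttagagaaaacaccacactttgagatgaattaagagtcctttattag

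Y_RNA.205 chr2:20680605-20680716 (+ strand): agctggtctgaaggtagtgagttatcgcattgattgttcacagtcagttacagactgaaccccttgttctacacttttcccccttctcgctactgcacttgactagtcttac

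Y_RNA.782 chr14:90117137-90117247 (- strand): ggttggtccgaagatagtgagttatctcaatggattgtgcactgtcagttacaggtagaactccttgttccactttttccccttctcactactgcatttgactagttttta

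CTGA was found on the RNA strand of 4 of these 4 SNORD genes, and it occurs in 68.1% of the 1458 annotated snoRNA genes of all kinds. TGATGA was found in 1 of them, SNORD114-1, against 39.9% of annotated snoRNA genes. The other strand was not searched for these letters, and a box with other bases is not counted.

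The next set shows the adapter start in K562-only exons. Each window holds up to 40 bases before and up to 24 after the match, and AGATCG, or AGATCGG where the match runs on, is in capitals.

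FAM175B chr10:126507967-126508019 (+ strand): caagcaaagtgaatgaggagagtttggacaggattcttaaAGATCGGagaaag

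NKIRAS1 chr3:23934680-23934749 (- strand): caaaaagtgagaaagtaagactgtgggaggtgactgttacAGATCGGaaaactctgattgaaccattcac

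RC3H1 chr1:173930895-173930964 (- strand): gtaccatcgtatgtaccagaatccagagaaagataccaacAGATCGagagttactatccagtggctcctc

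SREBF2 chr22:42271561-42271630 (+ strand): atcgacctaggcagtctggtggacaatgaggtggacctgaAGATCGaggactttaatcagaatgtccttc

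FSCN1 chr7:5642905-5642974 (+ strand): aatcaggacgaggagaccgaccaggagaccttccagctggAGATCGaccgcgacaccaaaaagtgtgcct

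DSCR3 chr21:38600030-38600099 (- strand): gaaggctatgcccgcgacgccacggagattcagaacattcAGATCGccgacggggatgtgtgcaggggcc

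These 6 windows cover no annotated UTR. FAM175B (ABRAXAS2, a subunit of the BRISC deubiquitinase) has its match at base 55 of a 67-base coding exon, exon 4 of 9. RC3H1 (Roquin, an RNA-binding repressor of mRNA) has it in exon 12 of 20, and SREBF2, the sterol-sensing transcription factor, in exon 6 of 19. NKIRAS1, FSCN1 (the actin-bundling protein fascin) and DSCR3 (VPS26C) have it in regions that are no exon of the gene's canonical transcript.

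The last set contrasts coding exons. Exon 15 of 90 of GPR98 (ADGRV1, an adhesion receptor of sensory hair cells) holds AGAT 3 times on its RNA strand and not on the opposite one. Exon 2 of 7 of TGFB1, which encodes the growth factor TGF-beta 1, holds AGAT on the opposite strand only. The POTEF and POTEI exons are near-copies, and capitals there mark the bases that differ between them.

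GPR98 chr5:89940523-89940686 (+ strand): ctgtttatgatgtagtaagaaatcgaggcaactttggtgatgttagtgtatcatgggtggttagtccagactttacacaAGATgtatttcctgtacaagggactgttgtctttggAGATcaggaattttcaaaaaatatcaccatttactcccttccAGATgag

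TGFB1 chr19:41854200-41854360 (- strand): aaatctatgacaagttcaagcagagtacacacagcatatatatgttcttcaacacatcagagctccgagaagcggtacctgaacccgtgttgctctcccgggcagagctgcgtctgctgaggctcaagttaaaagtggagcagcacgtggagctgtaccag

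POTEF chr2:130845640-130845710 (- strand): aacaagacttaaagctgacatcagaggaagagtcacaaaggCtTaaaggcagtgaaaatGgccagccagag

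POTEI chr2:131248243-131248313 (- strand): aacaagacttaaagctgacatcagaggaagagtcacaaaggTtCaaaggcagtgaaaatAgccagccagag

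Annotated small RNA genes were more frequent among K562-only exons than in any group they were compared with. Of 215 K562-only exons, 13 (6.05%, 95% Wilson interval 3.57 to 10.1%) hold a small RNA gene, against 24 of 3639 exons (0.66%) over the 3 lists. None of the other 182 K562 exons does, which allows a share of up to 1.65% by 3 counts (the Wilson upper limit, drawn in the plot of shares, is 2.07%). The U87MG-only exons have 1 of 233 (0.429%) and the T98G-only exons 8 of 2035 (0.393%). The difference was 6.05 percentage points from the other K562 exons (Newcombe interval 2.82 to 10.1; Fisher's exact test, two-sided, adjusted p = 0.00225). It was 5.62 points from the U87MG-only exons (2.46 to 9.66; Fisher's exact test, adjusted p = 0.0026) and 5.65 points from the T98G-only exons (3.15 to 9.68; Fisher's exact test, adjusted p = 5.6e-08). Exons are features of a list and not replicates, so these p-values, like all below, cover counting over exons only. They are adjusted by Benjamini-Hochberg over 14 tests, and this comparison was added after the lists had been seen.

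**Figure D1:**
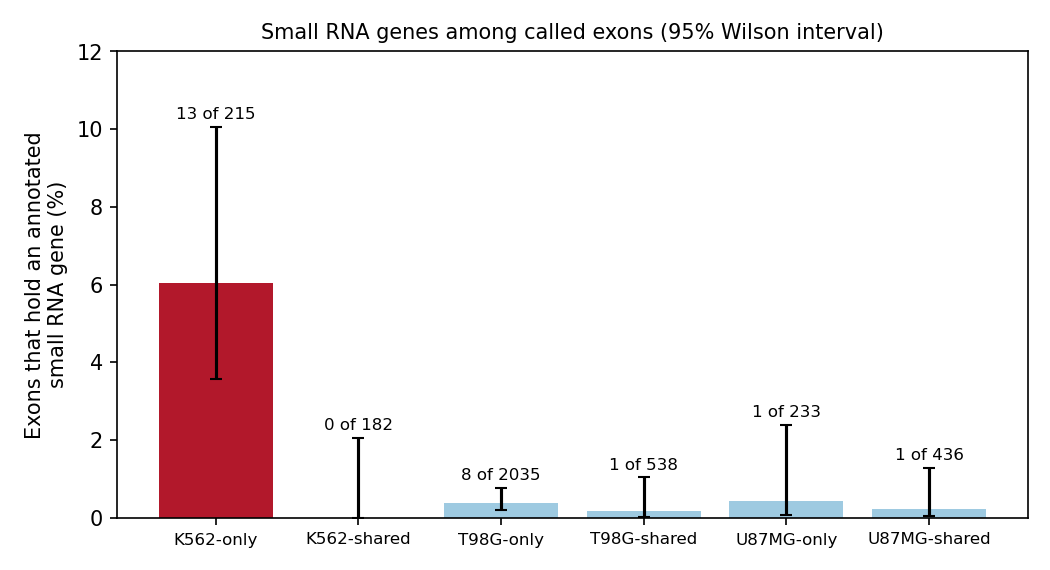
Share of called exons that hold an annotated small RNA gene (y axis, percent), for exons called in 1 line only and exons shared with another line; K562-shared are the other 182 K562 exons. Bars are shares, whiskers 95% Wilson intervals, and the lower whisker of the K562-only bar (3.57%) lies above the upper whisker of each other bar, the highest of which is 2.39%.

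These 13 exons fall into 3 classes. There are 7 that hold snoRNA genes, 2 that hold miRNA genes and 4 that hold other RNA polymerase III type RNAs. For 10 of them the region is the small RNA gene with no protein-coding exon around it. Among these are SNORD63 (68 bases), SNORD99 (74 bases), SNORD19.1 (76 bases) and SNORD114-1 (72 bases, from the imprinted snoRNA cluster of chromosome 14). SNORA80, at 136 bases, is the only H/ACA box member. The RNA polymerase III type members are both Y_RNA regions, RN7SKP91 (288 bases, a 7SK-like copy) and RN7SL401P (295 bases, a copy of the signal recognition particle RNA). The Y_RNA regions are annotated by the family name only, and whether they are functional Y RNA genes or copies was not examined. MIR720, 110 bases wide, was annotated as a miRNA and later reclassified as a fragment of a transfer RNA. No other place in the genome matched any of the 13 exons at 95% identity or more over 90% of its length, and less similar family members were not searched.

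In the remaining 3, the small RNA lies inside a wide region of a host gene. RPL23A, a large-subunit ribosomal protein gene, has 2 such regions. The first, of 712 bases, holds SNORD42B, and the second, of 501 bases, holds SNORD42A and SNORD4B. A 3061-base region of FAM172A holds MIR2277. AGAT lies on the RNA strand of 6 of the 13, and of 3 of the 10 with no host exon, against 152 of all 215 members (70.7%), and this was not tested at like width.

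Other non-coding members are few. Long non-coding RNA genes have 5 of the 215 exons (2.33%), against 1 of the other 182 (0.549%) and 50 of 2035 T98G-only exons (2.46%), and this was not tested. They are GAS5, a snoRNA host gene whose transcript accumulates in growth arrest, C17orf76-AS1 (SNHG29, also a snoRNA host), ZNF767, RP11-466F5.8 and RP11-46C20.1. Pseudogenes have 5, namely POTEKP, AC010677.5, RP11-345J4.8, PI4KAP2 and RPS23P8, against 6 of the other 182. The HIST1H2BJ region, from a histone H2B gene, matches no exon of GENCODE release 44. No K562-only exon touches a retained intron of the U87MG list, 2 of the other K562 exons do, and so do 1.84% of exons over the 3 lists.

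K562-only exons were less often coding than the other K562 exons. Coding sequence of at least 1 base was present in 186 of 215 (86.5%, interval 81.3 to 90.4%), against 171 of 182 (94.0%) and 90.4% over all 3 lists. The difference was -7.44 percentage points (-13.3 to -1.51; Fisher's exact test, adjusted p = 0.0372). Without the exons that hold a small RNA gene the test no longer passed, with 183 of 202 coding and an unadjusted Fisher's exact p of 0.256. With at least 50% of the exon coding, 116 K562-only exons and 130 others qualified (unadjusted Fisher's exact p = 0.00041). A further count shows 85 K562-only exons (39.5%, 33.2 to 46.2%) coding throughout, against 117 of the other 182 (64.3%, 57.1 to 70.9%). The share coding throughout is 53.4% in T98G-only and 67.0% in U87MG-only exons.

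Placed on the canonical transcript of their gene, 116 K562-only exons (54.0%) fall at internal exons, 16 at last exons, 9 at first exons and 3 at a single exon. A region with no annotated exon of exactly its ends was placed at the lowest-numbered canonical exon it overlaps. It need not be that exon. Exon numbers and positions named for members elsewhere follow the same placement. A further 70 K562-only exons (32.6%, 26.6 to 39.1%) were not placed on the canonical transcript, against 36 of the other 182 (19.8%, 14.6 to 26.2%). Such a region has the ends of another annotated exon and can still overlap a canonical one. Small RNA genes such as SNORD99 and SNORD114-1 are counted among the 70. For 31 K562-only exons (14.4%) and 21 of the others (11.54%), each transcript with an exon of exactly these ends is annotated as intron-retaining. Other transcripts can overlap these regions, as in USP15, where 384 of 463 bases are annotated as coding. These shares are descriptions.

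K562-only exons were wider and richer in G and C. Their median width was 227 bases (quartiles 128.5 and 559.5), against 168 bases (115.75 and 399.75) for the other K562 exons, and they cover 122.9 kb against 74.97 kb. Median G+C content was 47.3% against 42.7%. The widest is a 7612-base region of MSI2, which encodes an RNA-binding protein of stem cells. NR6A1 (an orphan nuclear receptor, 5519 bases, its last exon), TMEM164 (4544 bases, its last exon), DSCR3 (4387 bases) and SLC4A7 (a sodium bicarbonate transporter, 4123 bases, its last exon) follow. The narrowest are coding exons of ASAP3 (49 bases) and of BIRC6 (59 bases, a ubiquitin ligase that inhibits apoptosis), both DRAM2 exons (64 and 67 bases) and the FAM175B exon (67 bases). The widths overlap over most of their range: the other K562 exons run from 46 to 3949 bases.

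**Figure D2:**
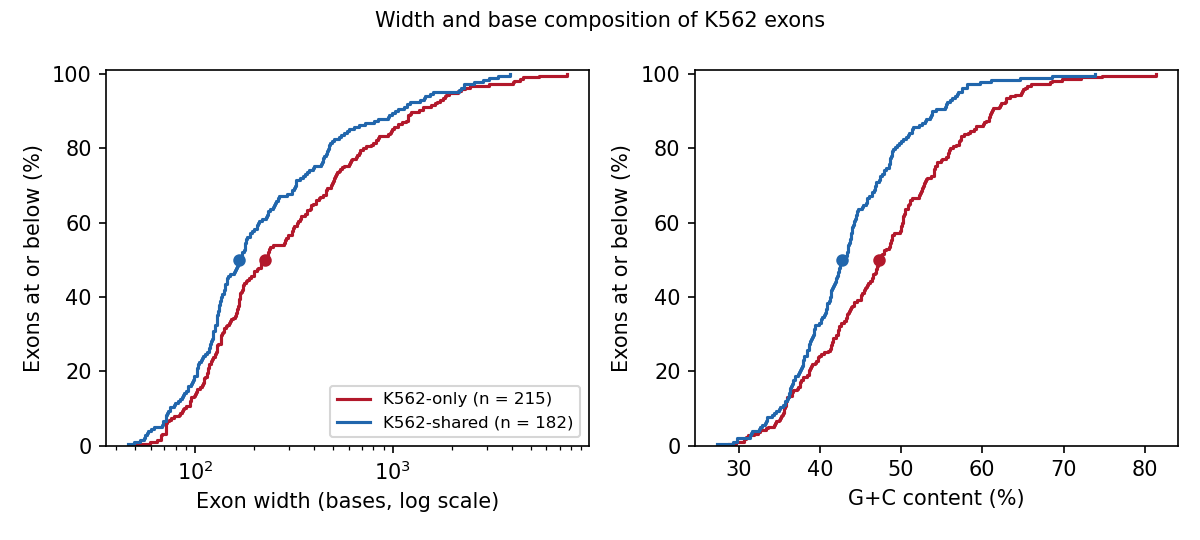
Cumulative share of exons (y axis, percent) by exon width in bases on a log scale (left) and by G+C content in percent (right) for the 215 K562-only and the 182 other K562 exons (K562-shared). Dots mark the medians, 227 and 168 bases on the left and 47.3% and 42.7% on the right, and the K562-only curve lies to the right of the other in both panels over most of the range.

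K562-only exons carry 214 gene symbols. Of the 215 exons, 161 (74.9%) are in genes with no exon listed for T98G or U87MG, whereas 89.8% of all protein-coding genes share no base with a T98G or U87MG exon on their strand. Absence from those lists is therefore the usual state of a gene and not a result about the members. The other 54 exons, in 51 genes, are in genes with a different exon called there, 51 of them in T98G and 25 in U87MG. Genes in which K562 has both a K562-only and a shared exon include ASAP3, BRWD1, CCNL1, HSP90AA1, IARS, MACF1, PDS5A, SNRNP200 and UBR4. At the inner edge of the rule, the RBM23 exon lies 18 bases from a T98G or U87MG exon, PAXBP1 86, FUBP1 122 and GANAB 123. In all, 9 members lie within 1000 bases of one on either strand. On the outer side there is no near miss, since all 182 other K562 exons have exactly the same ends as an exon of another line.

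Several members come from 1 gene in 10 genes. FLNA, which encodes the actin crosslinker filamin A, has 3, of 684, 220 and 148 bases, with G+C contents of 61.0, 62.3 and 62.2%. GPR98 also has 3, exons 15, 29 and 57 of 90, with AGAT 3 times, 1 time and 1 time on the RNA strand and 0, 0 and 1 times on the other. TGFB1 has exons 2 and 6 of 7. DDOST, a subunit of the oligosaccharyltransferase that attaches sugars to proteins, has exons 1 and 6 of 11, and MAN1A1, a Golgi mannosidase that trims those sugars, has exons 8 and 9 of 13. SEL1L3 has exons 4 and 16 of 24. BMP2K (a kinase), DRAM2 (a lysosomal membrane protein of autophagy), RPL23A and UBE2Z (an E2 enzyme for ubiquitin and FAT10) have 2 each. None of these 22 exons holds AGATCG on the RNA strand.

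Marker genes of the cell line are few among the members. Of 35 blood and erythroid marker genes, 2 have a K562-only exon: TFRC (exon 9 of 19), the transferrin receptor through which erythroid cells take up iron, and PTPRC (exon 25 of 33), the CD45 phosphatase of white blood cells. The other K562 exons touch 0 of these 35 genes, the T98G list 1 and the U87MG list 0. Globin, GATA1 and glycophorin genes have no K562-only exon. Glioblastoma markers have no K562-only exon out of 18 genes, and CD44 is among the other K562 exons. PRC2 genes have none out of 15, whereas an exon of EZH2 itself is among the other K562 exons. The lists are calls and not expression, so these counts check the label only as far as calls can.

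By function, the largest of the lists used is RNA helicase, splicing and translation, with 12 of 214 genes (5.61%, 3.24 to 9.54%) against 8 of 180 (4.44%) for the other K562 exons. The 12 include the pseudogene RPS23P8. In alphabetical order the first 6 are EIF2S3 and EIF3E, which are translation initiation factor subunits, IARS and LARS, which charge transfer RNA with isoleucine and leucine, RBM23, and RPL23A. Ubiquitin genes number 8 of 214 (3.74%) against 9 of 180 (5.00%) and include BIRC6, HUWE1, RNF213, RNF34 and FBXO9, all ligases or ligase subunits, beside the E2 enzyme UBE2Z. Motor, cilium and centrosome genes number 2 (ASPM and CEP120) against 8, and cell cycle genes 3 (ASPM, NUMA1 and PDS5A) against 6. Zinc finger genes number 2 (ZNF75A and ZNF767, of which ZNF767 is annotated as long non-coding) against 2. The intervals of these shares overlap between K562-only and other K562 genes in each list, and no list was tested.

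AGATCG, the first 6 bases of the adapter, was found on the RNA strand of 14 K562-only exons (6.51%, 3.92 to 10.6%). AGATCG occurs in 3.04% of exons of canonical protein-coding transcripts, and in 4.66% of those within 10% of the members' widths. On the opposite strand 4 members hold it. Of the 16 members with AGATCG on 1 strand only, 13 (81.2%, 57.0 to 93.4%) have it on the RNA strand (exact binomial test against an even split, two-sided, adjusted p = 0.0372). Over all canonical exons the RNA strand also leads, with 5633 exons against 3101, as it does in exons of the members' genes that were not called, with 68 against 42. Both of these shares lie inside the members' interval, so a test against an even split does not set the members apart from exons in general. Limited to exons of up to 300 bases the test had 2 exons, both on the RNA strand, and no p below 0.5 was possible.

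The AGATCG exons are mostly wide: 12 of 14 are over 300 bases, with a median width of 924 bases and a first match between base 49 and base 2117. Those running on to AGATCGG number 5, in FAM175B, HAPLN3 (a hyaluronan link protein), NKIRAS1, NR6A1 and ZNF75A, and the ZNF75A region of 4067 bases holds AGATCG 3 times. The other 9 are in ARHGAP11B (182 bases, in annotated UTR), DSCR3, FSCN1, GTF3C3 (a subunit of the RNA polymerase III factor TFIIIC), HSP90AA1 (the inducible HSP90 chaperone), MAML2 (a Notch coactivator), NARG2, RC3H1 and SREBF2.

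Compared with other called exons, the share with AGATCG was lower in K562-only exons, and over exons of all widths no difference passed the test. The other K562 exons had 17 of 182 (9.34%), a difference of -2.83 points (-8.56 to 2.53; Fisher's exact test, adjusted p = 0.408). In comparisons added after the lists had been seen, U87MG-only exons had 22 of 233 (9.44%; -2.93 points, -8.07 to 2.24; adjusted p = 0.38) and T98G-only exons 216 of 2035 (10.6%; -4.10 points, -7.06 to 0.207; adjusted p = 0.0911), by the same exact test. In exons of up to 300 bases, 2 of 122 K562-only exons held it, against 8 of 123 other K562 exons (odds ratio 0.240, unadjusted Fisher's exact p = 0.102). This planned comparison within K562 did not pass. In comparisons chosen after the lists had been seen, it was 12 of 174 U87MG-only exons (odds ratio 0.225, unadjusted Fisher's exact p = 0.0492) and 94 of 1245 T98G-only exons (odds ratio 0.204, unadjusted Fisher's exact p = 0.00897). Per kb, which allows for width, the RNA strand held 0.130 AGATCG (exact Poisson interval 0.0744 to 0.211) in K562-only exons and 0.253 (0.153 to 0.396) in the other K562 exons. The uncalled exons of the K562-only genes held 0.111 per kb (0.0888 to 0.138), and the called T98G-only exons 0.173 (0.152 to 0.196), both inside the K562-only interval.

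**Figure D3:**
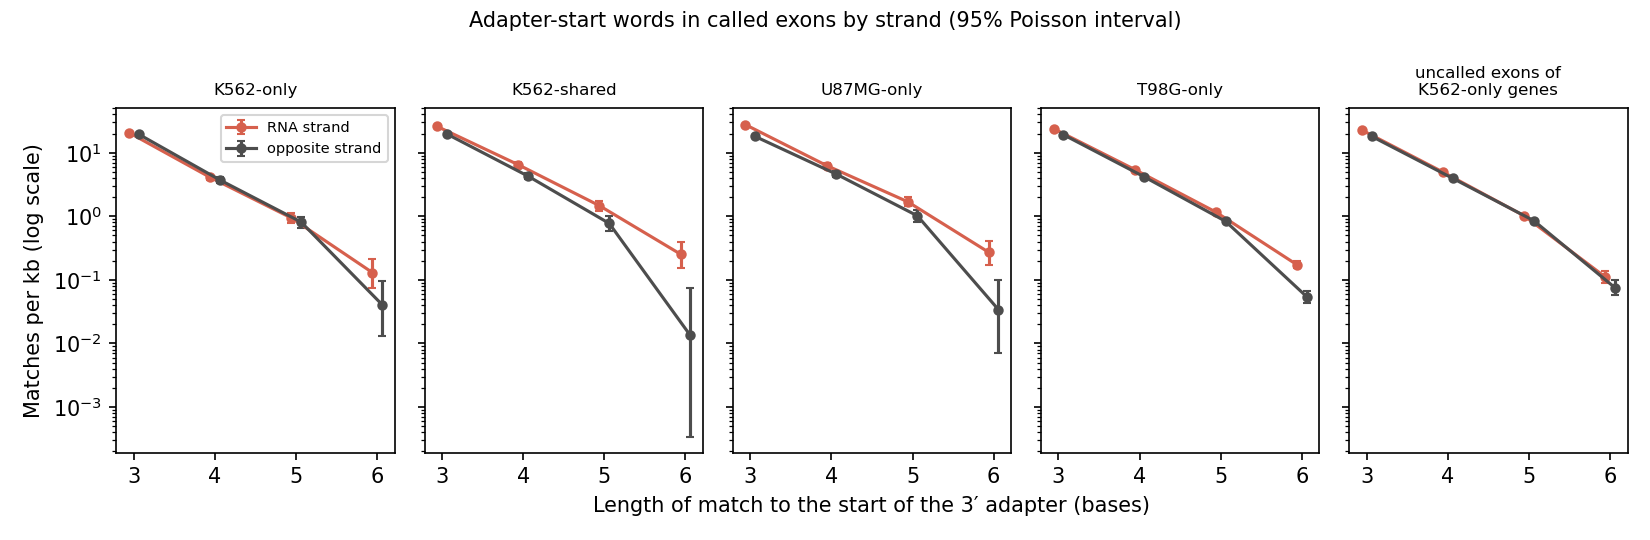
Matches per kb (y axis, log scale) to the first 3, 4, 5 and 6 bases of the adapter on the RNA strand and on the opposite strand, in called exons by group and in uncalled exons of genes with a K562-only exon. Whiskers are 95% exact Poisson intervals; at 4 bases K562-only exons hold 4.10 per kb on the RNA strand and 3.73 on the opposite one, and the other K562 exons (K562-shared) hold 6.47 and 4.28.

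Counted by occurrence, but not by exon, the strand share of the shorter match AGAT differed between the groups. K562-only exons hold it 504 times on the RNA strand and 458 times on the opposite strand, a ratio of 1.10, while the other K562 exons hold it 485 and 321 times, a ratio of 1.51. The share on the RNA strand was 52.4% (49.2 to 55.5%) against 60.2% (56.8 to 63.5%), a difference of -7.78 points (-12.4 to -3.14; Fisher's exact test over occurrences, adjusted p = 0.00376). It was 57.7% in U87MG-only exons (difference -5.33 points, -9.74 to -0.888; Fisher's exact test, adjusted p = 0.0372) and 56.7% in T98G-only exons (-4.30 points, -7.57 to -1.05; adjusted p = 0.0269 by the same exact test). The 3 bases AGA differed in the same direction, with ratios of 1.06 in K562-only and 1.32 in other K562 exons (unadjusted Fisher's exact p = 1.15e-06 over occurrences). The difference is therefore not particular to AGAT. Occurrences in 1 exon are not independent, so these p-values are too small. Counted by exon, AGAT on 1 strand only lay on the RNA strand in 39 of 57 K562-only exons and 53 of 66 others, which did not pass (Fisher's exact test, adjusted p = 0.208). Uncalled exons of the K562-only genes and of the other K562 genes have the same ratio of 1.25.

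The groups differ in width and coding content, so the AGAT ratio was also taken within classes of both. In exons of up to 300 bases it was 1.37 for 122 K562-only and 2.42 for 123 other exons. In exons coding throughout it was 1.47 for 85 K562-only and 2.18 for 117 other exons, with 75 against 51 and 183 against 84 occurrences, and there the difference did not pass (unadjusted Fisher's exact p = 0.0882). By exon, AGAT lies on the RNA strand of 152 K562-only exons (70.7%), against 50.4% of canonical exons and 62.6% of those of like width. The remaining 63 (29.3%) lack it, among them both DRAM2 exons, TGFB1 exon 2, the TFRC exon and the wide FLNA exon.

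The same count was made along the adapter. Over 9 overlapping 4-base words from the adapter's first 13 bases, leaving out GATC, which reads the same on both strands, the ratio of RNA to opposite strand was above 1.3 for 1 word in K562-only exons and for 8 words in the other K562 exons. It was above 1.3 for 8 words in U87MG-only exons, 6 in T98G-only exons and 3 in uncalled exons of the K562-only genes. The median word ratio was 1.10 in K562-only, 1.56 in other K562, 1.59 in U87MG-only, 1.32 in T98G-only and 1.22 in these uncalled exons. Among all 240 4-base words that are not their own reverse complement, AGAT ranked 65 by this ratio in K562-only exons and 9 in the other K562 exons. Of the 20 words with the highest ratio, 1 is an adapter word in K562-only exons and 8 are in the other K562 exons. These word counts were chosen after the lists had been seen and have no test.

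**Figure D4:**
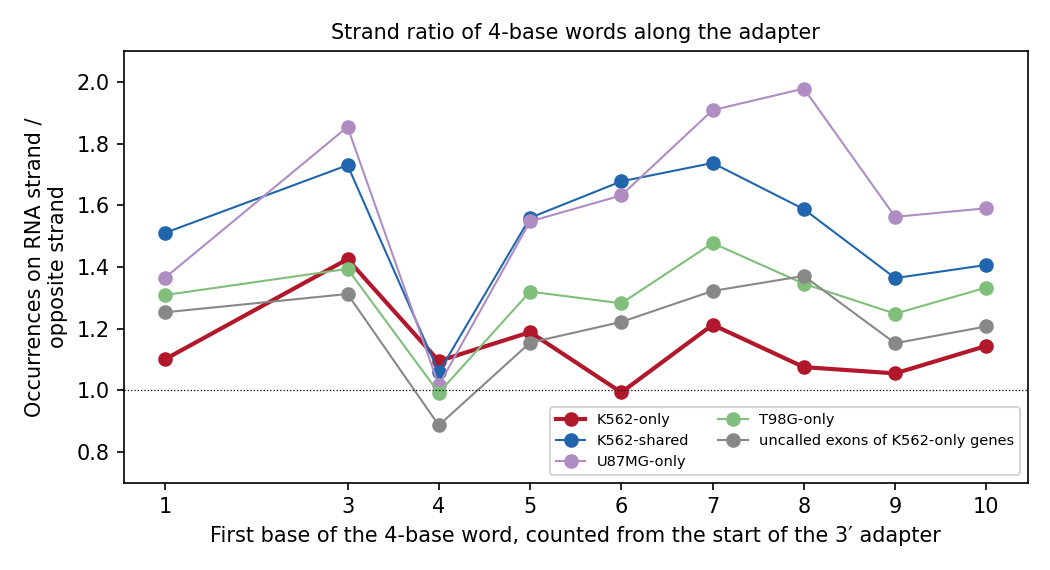
Ratio of occurrences on the RNA strand to those on the opposite strand (y axis) for 9 words of 4 bases, by the word's first base in the adapter (x axis), in called exons by group (K562-shared are the other 182 K562 exons) and in uncalled exons of genes with a K562-only exon. The K562-only line lies between 0.99 and 1.43, with a median of 1.10, and the K562-shared line between 1.06 and 1.74.

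Near-identical copies make some members uncertain, since a read that covers no differing base cannot be assigned to 1 copy. A copy at 95% identity or more over 90% of the exon was found elsewhere in the genome for 18 K562-only exons (8.37%) and 14 of the other 182 (7.69%), a difference of 0.68 points (-4.99 to 6.10; Fisher's exact test, adjusted p = 0.855). Exons with 5 or more copies number 10 against 1. The POTE family of primate-specific ankyrin-repeat genes makes up 7 of those 10, with 6 to 17 copies each: POTEE, POTEF, POTEG, POTEH, POTEI and POTEM, all 71 bases, and the pseudogene POTEKP, 115 bases. Over their 15 pairs the 71-base exons are 95.8 to 100% identical, with at most 3 mismatches, and 4 pairs are identical. Each fits inside the POTEKP exon with 2 to 5 changes. The T98G and U87MG lists have 0 POTE exons, and none of the 7 holds AGAT on either strand. They count as 7 exons by the rule, and how many of the 7 gave RNA cannot be told from the lists, which hold no reads.

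Overlap with the separate T98G full-length target list did not differ by a margin that passed the test. It was 30 of 215 (13.95%, 9.95 to 19.2%), against 20 of the other 182 (10.99%, 7.23 to 16.4%) and 13.1% over the 3 lists, a difference of 2.96 points (-3.74 to 9.44; Fisher's exact test, adjusted p = 0.483). For reference, 4.77% of all protein-coding genes overlap that list. Early in genome order are DVL1 (a Wnt pathway protein, 1240 bases), UBR4 (a ubiquitin ligase, exon 4 of 106), IQGAP3 (exon 10), SNRNP200 (a spliceosomal helicase, exon 38), IMPDH2 (guanine nucleotide synthesis, 613 bases), TFRC and IARS (exon 31). All 3 FLNA exons are among the 30. So 30 exons that were not called as T98G small RNA targets lie in RNAs that were called as T98G full-length targets.

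Genes with a K562-only exon that are listed in the authors' deposited siEZH2 table were more often lower than higher after EZH2 siRNA in U87MG. There 30 of them appear in the authors' deposited table, 9 higher (30.0%, 16.7 to 47.9%) and 21 lower, with a median log2 fold change of -0.62, whereas 49.3% of all 1342 rows are higher and their median is -0.47. Genes with another K562 exon have 24 rows in the authors' deposited table, 7 higher, with a median of -0.66. Limited to an absolute log2 fold change of at least 1 in the authors' deposited table, 4 of 9 genes with a K562-only exon are higher. The lowest log2 fold changes in the authors' deposited table are those of MBOAT7 (a phospholipid acyltransferase, -1.47), HIST1H2BJ (-1.21), TGFBR2 (the TGF-beta type II receptor, -1.10), FDXR (ferredoxin reductase, -1.07) and UBR4 (-1.05). The highest in the authors' deposited table are CTSH (the protease cathepsin H, 1.47), CIT (citron kinase of cytokinesis, 1.20), GLUL (glutamine synthetase, 1.09), ARHGAP11B (1.01) and HMGB2 (a chromatin protein, 0.96). In both that list of full-length targets and the authors' deposited table are 9 genes with a K562-only exon, and 8 of these are lower: UBR4, PSAP, SIDT2, SRPR, GCN1L1, PIEZO1, TFRC and HUWE1, with OAT the higher one (0.60). How many full-length targets without a K562-only exon are lower was not counted. The 8 of 9 is therefore a description and not a trait of genes with a K562-only exon. The authors' deposited table comes from 2 libraries an arm in another cell line, gives no errors, holds only genes past its threshold, and has 1 siEZH2 library whose treatment label names EZH3.

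**Figure D5:**
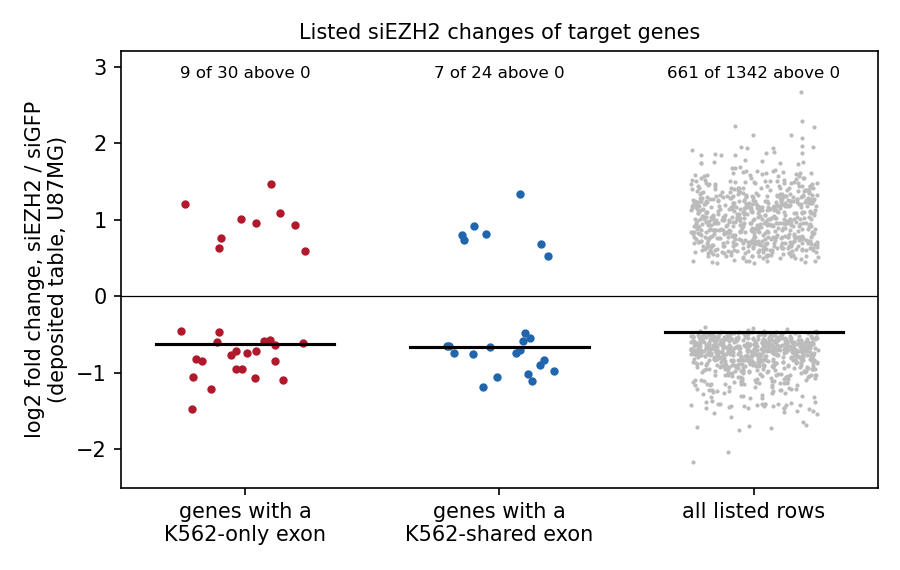
log2 fold change of siEZH2 over siGFP in U87MG from the authors' deposited table (y axis), 1 point per listed gene, for genes with a K562-only exon, genes with another K562 exon (K562-shared) and all 1342 rows. Horizontal spread is only for legibility and lines mark the medians, -0.62, -0.66 and -0.47; 9 of 30 K562-only genes lie above 0.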

How the data were processed

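Regions called by the authors from small RNA sequencing of EZH2 precipitates, IgG precipitates and input in K562, T98G and U87MG were compared. Per the labels, the authors trimmed reads with cutadapt, aligned them to hg19 with BWA, counted them in exons with bedtools, and called exons with DESeq2 and peaks with pyicoclip; thresholds and the exon annotation are not given in the sources used here. The siEZH2 values are the authors' deposited log2 fold changes, siEZH2 over siGFP by the order of names in the table. The other deposited value columns (a score per retained intron, a number of exon names or a distance per exon) were not used.

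A K562 exon sharing no base with a T98G or U87MG exon was a member. Members and gene lists were chosen with earlier results of these data known. Exons were annotated with GENCODE release 44 mapped to GRCh37, whose chromosomes hold all rows, and copies were found with blastn 2.17.0. Motifs were counted on both strands, overlaps included; AGATCT counts AGATC on both. Exon groups were compared with Fisher's exact test and strands with an exact binomial test (scipy 1.17.1), adjusted over 14 tests. Only the overlap count and Fisher's exact test over exons were tried on simulated data. Those exons had equal widths and a planted difference larger than any AGATCG difference seen here. Gene names in the text follow a rule (adapter match, several exons, gene lists, extremes of width and of siEZH2 change, small RNA genes, full-length targets, nearest to another line); all 13 small RNA exons, the POTE exons and windows from exons over 300 bases wide go beyond it and were chosen after their values were seen. Some members and 1 gene list are not reported here. Alternatives were other motifs, 1 exon per gene, width limits and stricter overlap.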

Additional observations from a re-analysis of the deposited data

How the results depend on the processing

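Of 62 recomputed tests, 51 kept their direction and their side of an unadjusted p of 0.05, and none reversed; 6 further values have no test. Members numbered 206 when exons within 1000 bases of another line were removed and 161 when their genes had to be absent from the other lines. The strand test of AGATCG gave 62.5% (p = 0.0814) with AGATC and 100% (p = 0.5, exact binomial test) up to 300 bases. Coding sequence without small RNA exons gave an odds ratio of 0.62 (exact p = 0.256), and 5 or more near-identical copies 8.83 (exact p = 0.0136). The copy count takes 7 POTE exons, near-copies of each other, as separate among its 10 K562-only exons, so its p-value is too small. Up to 300 bases, AGATCG against U87MG-only exons gave an odds ratio of 0.225 (exact p = 0.0492) and against T98G-only exons 0.204 (p = 0.00897). Against the other K562 exons the odds ratio at these widths was 0.240 (exact p = 0.102), which did not pass, as over all widths. AGAT occurrences in exons coding throughout gave 0.675 (exact p = 0.0882) against other K562, 0.78 (p = 0.241) against U87MG-only and 0.747 (p = 0.123) against T98G-only exons, and AGATC gave 0.696 (p = 0.0706) and 0.83 (p = 0.198) against the last 2. All p-values here are from Fisher's exact test unless named otherwise, and the cause of these shifts was not tested. The comparisons by small RNA gene, copies, AGAT occurrences, AGAT by exon and coding throughout, those of AGATCG with U87MG-only and T98G-only exons, and their alternatives, were chosen after seeing the data. No paired analysis was possible because the lists hold no values for single libraries; for the same reason leaving out a library was not run, and depth behind each call is unknown.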
